A study of Mus musculus with 2 samples.

Results

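The microRNA (miRNA) genes described here are the 5 members of the miR-200 family (Mir200a, Mir200b, Mir429, Mir200c and Mir141) with Mir203 and Mir205, all known as markers of epithelial cells. They were chosen by name, and all 7 were found by Ensembl gene ID among the 1973 miRNA genes counted. The tissue was whole heart of healthy B6NCrl mouse embryos at day 11.5, with male and female embryos pooled and no treatment or genetic change named in the labels. The 2 libraries, biological replicates 1 and 2, formed the only group. Replicate 1 pooled hearts of 109 embryos, and for replicate 2 the labels state no number. They give the libraries separate tissue samples but 1 shared donor entry, so the spread between them may be partly technical.

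The miR-200 family works in a feedback loop with the repressors ZEB1 and ZEB2. The miRNAs silence Zeb1 and Zeb2 messages, and the ZEB proteins bind E-boxes to repress the miR-200 loci, so cells tend to hold either high miR-200 and an epithelial state or high ZEB and a mesenchymal one. miR-203 restrains stem cell genes such as Trp63 in stratified skin, and miR-205 is typical of basal cells and also targets Zeb1 and Zeb2. In the heart of this age, endocardial and epicardial cells pass from sheet-like to mesenchymal states, while most of the tissue is muscle.

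A miRNA recognises its targets mainly through its seed, bases 2 to 8 of the mature strand. The mature strands below are those regarded as the main product of each hairpin and are shown because their seeds divide the family. They were copied from RefSeq on build GRCm38.p6, where all 7 members matched, and run 5′ to 3′ with the seed in capitals.
miR-200b-3p: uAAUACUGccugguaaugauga
miR-200c-3p: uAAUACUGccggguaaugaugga
miR-429-3p: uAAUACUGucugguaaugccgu
miR-200a-3p: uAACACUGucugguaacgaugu
miR-141-3p: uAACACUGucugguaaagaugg
miR-203-3p: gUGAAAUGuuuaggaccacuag
miR-205-5p: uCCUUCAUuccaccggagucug

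The family thus has 2 seeds. Mir200b, Mir200c and Mir429 share AAUACUG, while Mir200a and Mir141 share AACACUG, and no other mouse gene in the RefSeq table carried either seed or those of miR-203-3p and miR-205-5p. Counted from the 5′ end, miR-200b-3p and miR-200a-3p differ inside the seed by U4C and outside it by C9U, U17C and A22U. Strands with the same seed differ little: miR-200b-3p and miR-200c-3p by U11G and A22G over 22 bases, and miR-200a-3p and miR-141-3p by C17A and U22G. None of the 14 mature strands of the members occurs whole in another gene's hairpin among 1005 in RefSeq. The longest run shared with another hairpin was 16 bases, between miR-200a-3p and miR-141-3p. Reads trimmed to that run would map to both genes, and by the layout of the deposited tables such reads stand on no gene.

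The family lies at 2 loci, and each seed has a member at both. On chromosome 4, on the minus strand of GRCm38 (the build also called mm10), Mir200b (ENSMUSG00000065549.2, 156055681 to 156055750) comes first in the direction of transcription. Mir200a (ENSMUSG00000065400.1, 156054896 to 156054985) follows after 695 bases, and Mir429 (ENSMUSG00000065427.1, 156053905 to 156053987) after a further 908. All 3 lie in an intron of the coding gene Ttll10 and within the noncoding transcript Gm13648, where Mir429 falls in an exon and the others in an intron. On chromosome 6, also on the minus strand, Mir200c (ENSMUSG00000065462.2, 124718322 to 124718390) precedes Mir141 (ENSMUSG00000065474.1, 124717914 to 124717985) by 336 bases. Both lie in an intron of the noncoding Gm15884, and Mir141 overlaps an exon of the unclassified transcript Gm29008. Mir203 (ENSMUSG00000065574.1) lies on the plus strand of chromosome 12, from 112130880 to 112130955, outside other genes of GENCODE M21; RefSeq places Mir203b (Gm51289) across from it on the minus strand. Mir205 (ENSMUSG00000065533.1) lies on the minus strand of chromosome 1, from 193507463 to 193507530, in an exon of the noncoding 4631405K08Rik, which RefSeq calls Mir205hg.

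The tables count reads per hairpin gene and do not separate the 2 arms. The hairpins of Mir429 and Mir200a, the most and the least counted genes of the chromosome 4 locus, are printed with both mature arms in capitals to show which stretches a count can hold.
Mir429: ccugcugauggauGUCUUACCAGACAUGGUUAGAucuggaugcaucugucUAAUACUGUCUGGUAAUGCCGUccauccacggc
Mir200a: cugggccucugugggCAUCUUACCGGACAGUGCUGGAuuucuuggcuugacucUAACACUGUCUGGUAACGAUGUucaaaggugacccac

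Depth differed between the libraries: counts on the gene's own strand summed over miRNA genes to 18467499 for replicate 1 and 2017294 for replicate 2, which is 9.15-fold less. A level here is counts per 1000000 of that total (CPM), and the 419 genes with at least 1 CPM in each library are called detected. The cardiac miRNAs of the myosin genes marked the tissue as heart, with Mir208b at 48339 ± 2647 CPM (SD, n = 2). Epithelial messenger RNAs were not measured, so the epithelial label rests on what is known of these miRNAs.

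All 7 genes were detected, in the middle of the range, at ranks 105 to 250 of the 419 detected genes. Together they took 0.182% ± 0.046 of the counts (SD, n = 2), with 0.214% in replicate 1 (exact 95% Clopper-Pearson interval 0.212 to 0.216%) and 0.149% in replicate 2 (0.144 to 0.154%). The miR-200 family alone stood at 1324 and 831 CPM. All intervals allow for counting error only: the reads carry no molecular identifiers, so they need not stem from separate molecules. In whole tissue, fewer cells of a type and less RNA per cell cannot be told apart.

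Among the members with the AAUACUG seed, Mir429 had the highest mean level of all 7, though in replicate 2 it stood just under Mir203. It had 12330 counts in replicate 1 and 843 in replicate 2, or 668 and 418 CPM. Mir200c had 6612 and 412 counts, or 358 and 204 CPM. Mir200b had 3946 and 318 counts, or 214 and 158 CPM. For each of these genes replicate 1 was the higher, and the intervals of the 2 libraries did not overlap.

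The members with the AACACUG seed were far less counted. Mir141 had 823 and 46 counts, or 44.6 CPM (interval 41.6 to 47.7) in replicate 1 and 22.8 CPM (16.7 to 30.4) in replicate 2. Mir200a had 739 and 57 counts, or 40.0 CPM (37.2 to 43.0) and 28.3 CPM (21.4 to 36.6). Replicate 1 was again the higher for both. These are also the members whose mature strands share the 16-base run; the part of reads lost to multimapping in their low counts was not tested.

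Outside the family, Mir203, the skin miRNA, had 9000 and 870 counts, or 487 CPM (477 to 498) in replicate 1 and 431 CPM (403 to 461) in replicate 2. Mir205, the basal cell miRNA, had 6140 and 456 counts, or 332 CPM (324 to 341) and 226 CPM (206 to 248). Both were higher in replicate 1, Mir203 by the smaller margin.

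**Figure D1:**
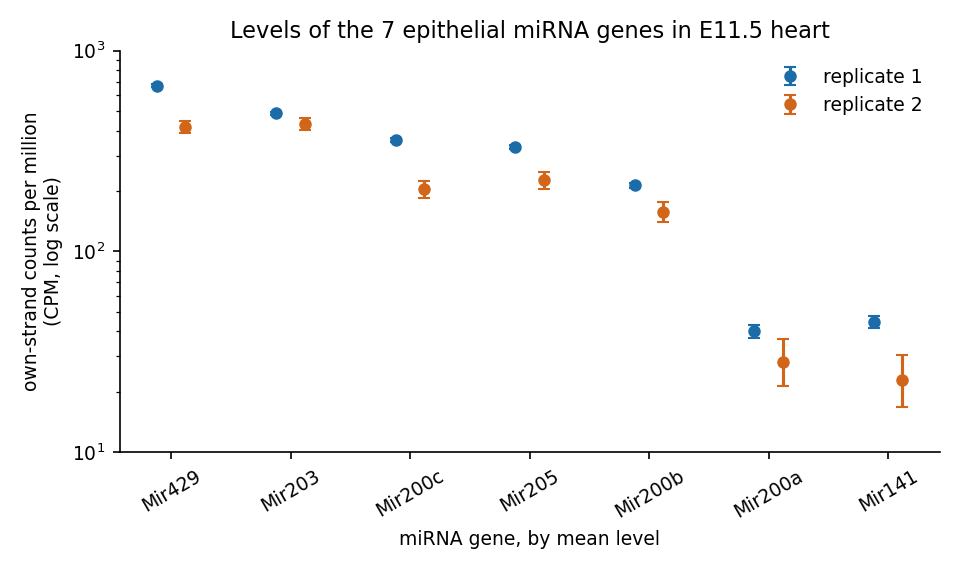
Own-strand CPM (log axis) of the 7 genes in replicate 1 (blue) and replicate 2 (orange), ordered by mean level; bars are exact 95% Clopper-Pearson intervals, which cover counting error only. Replicate 1 lies above replicate 2 for each gene, and Mir200a and Mir141 stand below 50 CPM in both libraries while the other 5 reach at least 158 CPM.

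Ordered by mean level, the genes ran Mir429 (543 ± 177 CPM), Mir203 (459 ± 40), Mir200c (281 ± 109), Mir205 (279 ± 75), Mir200b (186 ± 40), Mir200a (34.1 ± 8.3) and Mir141 (33.7 ± 15.4), each as SD over n = 2. Of the 6 neighbouring pairs in this order, 3 kept it in both libraries beyond counting error. Mir203 exceeded Mir200c 1.36-fold in replicate 1 and 2.11-fold in replicate 2, Mir205 exceeded Mir200b 1.56-fold and 1.43-fold, and Mir200b exceeded Mir200a 5.34-fold and 5.58-fold. The other 3 pairs swapped places, with intervals in replicate 2 that included equality. Mir429 stood 1.37-fold above Mir203 in replicate 1 and at 0.969 of it in replicate 2 (exact 95% interval 0.880 to 1.07). Mir200c was 1.08 times Mir205 in replicate 1 and 0.904 times in replicate 2, and Mir200a was 0.898 times Mir141 and then 1.24 times. The order therefore held between an upper group of 5 genes and the pair Mir200a and Mir141, and only in part within the upper group. Counts were not divided by length, because a miRNA read covers 1 mature arm. Divided by hairpin length, an alternative chosen after seeing the data, Mir205 passed Mir200c and Mir141 passed Mir200a, while the other 4 neighbouring pairs kept their order.

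Genes that lie in 1 host transcript were counted at very different levels. At the chromosome 4 locus Mir429, the last of the hairpins, held 72.5% of the locus counts in replicate 1 (71.8 to 73.1%) and 69.2% in replicate 2 (66.5 to 71.8%). Mir200b held 23.2% and 26.1%, and Mir200a, between them, held 4.34% and 4.68%. Mir429 exceeded Mir200a 16.7-fold in replicate 1 and 14.8-fold in replicate 2, a log2 ratio of 3.97 ± 0.12 (SD, n = 2). At the chromosome 6 locus Mir200c held 88.9% (88.2 to 89.6%) in replicate 1 and 90.0% (86.8 to 92.6%) in replicate 2, and exceeded Mir141 8.03-fold and 8.96-fold (log2 ratio 3.08 ± 0.11). At both loci the AACACUG member was the low one. How well different miRNAs are captured and read was not measured, so these ratios compare counts and not amounts of RNA.

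**Figure D2:**
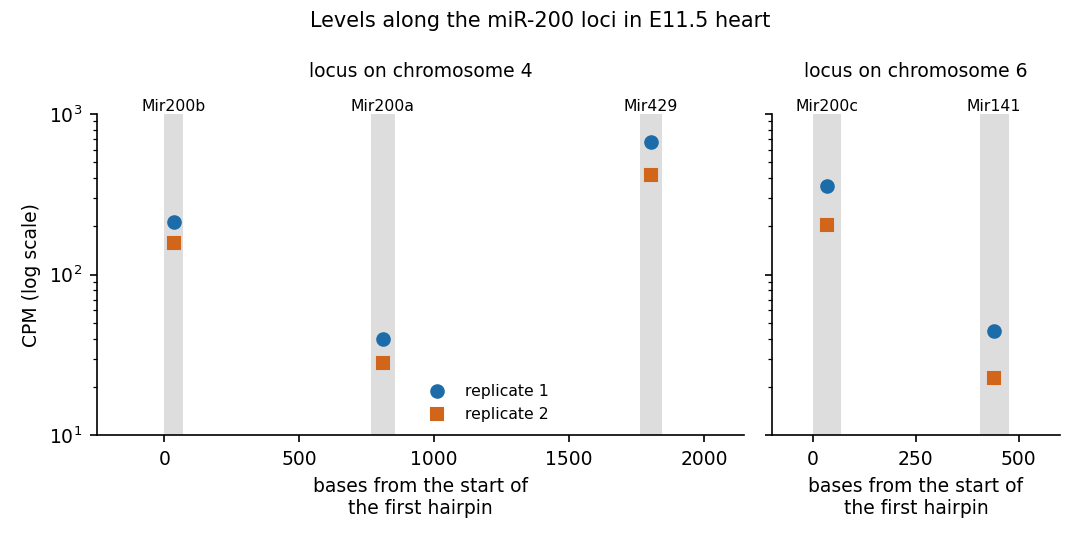
CPM (log axis) of the hairpin genes at the chromosome 4 locus (left) and the chromosome 6 locus (right) against distance in bases from the start of the first hairpin, in the direction of transcription; grey bands mark the hairpins, blue circles replicate 1 and orange squares replicate 2. Mir200a and Mir141 stand lowest at their loci in both libraries.

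By seed, the AAUACUG group made up 93.6% of family counts in replicate 1 and 93.9% in replicate 2. It exceeded the AACACUG group 14.7-fold and 15.3-fold, a log2 ratio of 3.90 ± 0.04, and the intervals of the libraries overlapped. The locus shares moved more. The chromosome 4 locus exceeded the chromosome 6 locus 2.29-fold (2.23 to 2.35) in replicate 1 and 2.66-fold (2.39 to 2.97) in replicate 2, with intervals that did not overlap. Mir203 exceeded Mir205 1.47-fold (1.42 to 1.51) and 1.91-fold (1.70 to 2.14), and the whole family exceeded Mir203 2.72-fold (2.65 to 2.78) and 1.93-fold (1.77 to 2.09), again without overlap. The family exceeded Mir205 3.98-fold and 3.68-fold with overlapping intervals. All 9 ratios between members or their sums that were set for testing went 1 way in both libraries, with intervals that excluded equality and a mean log2 ratio above its SD. Intervals of the 2 libraries overlapped for 6 of these 9. The 9 ratios are not separate checks, because several are built from the counts of the same genes.

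For the difference between the libraries, each gene's counts were split against the library totals by an exact binomial test (two-sided), with Benjamini-Hochberg adjustment over the 419 detected genes. It compares 2 libraries, not conditions, and has no replicate behind either side. All 7 members passed an adjusted p of 0.05 with replicate 2 the lower library, where 15.0% of all detected genes were called lower (63 genes, with 60 higher). Scaling by all mapped reads changed that background to 28 lower (6.68%) and 138 higher, with 5 of the 7 members called lower and Mir200a and Mir203 not. None of the members reached a 2-fold difference, which 1.91% of detected genes did in that direction.

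The size of the difference varied among the members. Mir141 stood at 0.512 of its level in replicate 1 (exact 95% interval 0.372 to 0.689; exact binomial test, adjusted p = 1.03e-05) and its locus partner Mir200c at 0.570 (0.515 to 0.630; adjusted p = 6.81e-32, exact binomial). On chromosome 4 the ratio was 0.626 for Mir429 (0.583 to 0.671), 0.706 for Mir200a (0.530 to 0.925; adjusted p = 0.0359, exact binomial) and 0.738 for Mir200b (0.656 to 0.827). Mir205 stood at 0.680 (0.617 to 0.748). Mir203 moved least, at 0.885 (0.825 to 0.949; exact binomial adjusted p = 0.00269). Its interval overlapped those of Mir200a and Mir200b only. Summed, the chromosome 4 locus stood at 0.655 (0.618 to 0.695) and the chromosome 6 locus at 0.564 (0.512 to 0.620). The 2 seed groups stood at 0.629 (0.597 to 0.662) and 0.604 (0.490 to 0.737), with overlapping intervals.

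These p-values allow for counting error alone. edgeR's exact test, which also allows for the spread over genes (biological coefficient of variation 17.6%), called 0 of the 7 members at an adjusted p under 0.05, against 1.19% of detected genes called lower. At an unadjusted p under 0.05 it gave 2 members, Mir200c and Mir141, against 2.63% of detected genes lower. That dispersion was itself estimated from these 2 libraries. Depth differed with the libraries as well. In 1 random thinning of replicate 1 to the total of replicate 2, the exact binomial test called 4 of the 7 lower. That was beside 11.8% of the 417 genes tested (49 genes), and all 7 ratios stayed below 1. Fewer counts also weaken the test for every gene. Mir200a, Mir141 and Mir203 were the ones not called in this draw, Mir141 narrowly (exact binomial adjusted p = 0.0509).

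The median log2 ratio of the members, on the log2(CPM + 1) scale, was -0.55, from -0.94 for Mir141 to -0.18 for Mir203, beside -0.01 over all detected genes. The genes most like them were sought among the 220 others with at least 100 counts in each library, by the distance between log2 ratios over the 2 libraries. Nearest to the members' median were Mir378c at -0.57, Mir5099 at -0.49, Gm23935 at -0.64, Mir182 at -0.46 and Mir92b at -0.45. Of the 220 genes, 6 had a ratio at or below that median. With 2 libraries this likeness rests on 1 ratio per gene. Among the 139 other detected genes with mean levels inside the members' range, the median log2 ratio was -0.03, and 10 had a ratio at or below the members' median.

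**Figure D3:**
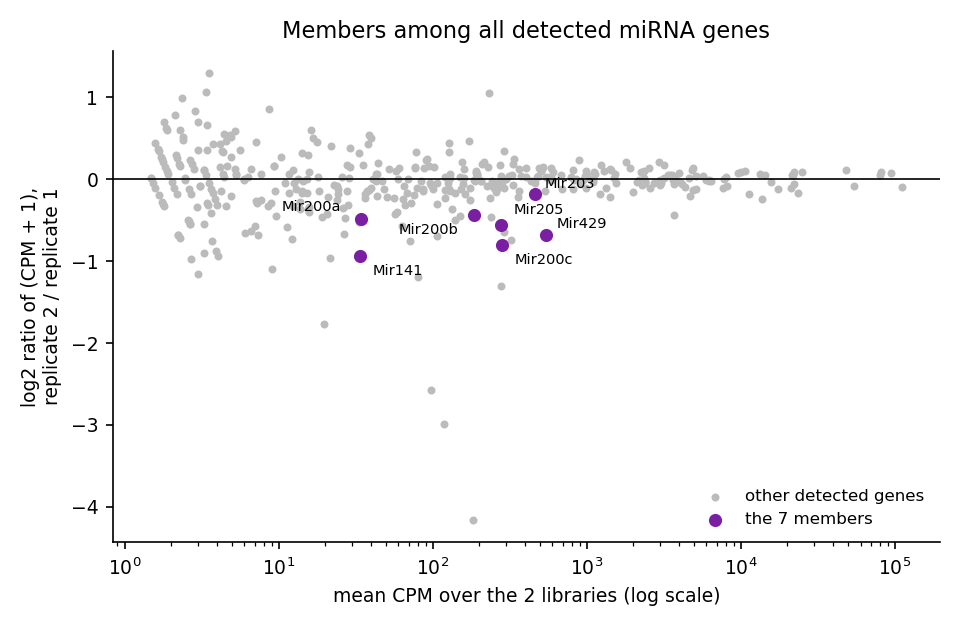
Log2 ratio of (CPM + 1) in replicate 2 over replicate 1 against mean CPM (log axis) for the 419 detected genes; each point is 1 gene, the 7 members are purple and labelled. The members lie between -0.94 and -0.18, below the zero line, while the median of all detected genes is -0.01.

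Other epithelial miRNAs were listed beside the members. The sensory cluster of Mir183, Mir182 and Mir96, transcribed together and typical of hair cells and other sensory epithelia, summed to 812 CPM in replicate 1 and 523 CPM in replicate 2. All 3 were called lower by the exact binomial test, as were 15.0% of all detected genes. edgeR's exact test called 0 of these 3 at an adjusted p under 0.05. Mir183 stood at 403 and 241 CPM, a ratio of 0.598 (0.545 to 0.656), Mir96 at 132 and 81.3 CPM (0.617) and Mir182 at 277 and 201 CPM (0.724). These ratios lie among those of the miR-200 family. The gut, liver and endocrine list summed to 926 and 601 CPM, with 3 of its 8 detected genes called lower and 0 higher. edgeR's exact test called 1 of these 8, Mir122 (edgeR adjusted p = 0.0483). Its liver miRNA Mir122 stood at 0.405 (0.361 to 0.453), below the interval of each member except Mir141. Mir375 stood at 0.432 (0.349 to 0.529) and was also called lower, while the gut miRNA Mir215 stood at 0.932 and was not called. The ciliated epithelium list did not go that way: it summed to 1451 and 1551 CPM. In it Mir34c, at 1377 and 1485 CPM, was called higher, while Mir449a, at 31.4 and 22.3 CPM, was not called. edgeR's exact test called 0 genes of this list at an adjusted p under 0.05.

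Lists for the other tissues of the heart and embryo differed in direction, and their sums changed little. The cardiac list summed to 58397 and 63145 CPM, with 4 of its 5 detected genes called higher and 0 lower. Of all 419 detected genes, 60 were called higher and 63 lower. In each list of this paragraph the calls allow for counting error only, and edgeR's exact test called 0 genes at an adjusted p under 0.05. In the cardiac list the muscle miRNAs Mir208a, Mir208b and Mir499 stood at 1.07, 1.08 and 1.16. Its other 2 detected genes, named after their values were seen, rested on few counts and have near-identical copies. Reads that map to more than 1 copy stand on no gene, so the sum of the cardiac list can leave such reads out. Mir133a-1, with 30 and 11 counts, stood at 3.36 (1.52 to 6.89) and Mir1a-1, with 55 and 3 counts, at 0.499 (0.0999 to 1.54) and was not called. The endothelial miRNA Mir126a, the only detected gene of its list, was called higher at 1.07. The mesenchyme and smooth muscle list summed to 99203 and 103682 CPM, with 1 of 6 genes called lower and 2 higher. In it Mir143 stood at 1.05, Mir145a at 1.13 and Mir214, a mesenchymal miRNA, at 0.916. The blood list summed to 1263 and 1221 CPM, with 1 of 4 detected genes lower and 1 higher; the erythroid Mir451a stood at 0.993 and the myeloid Mir223, called lower, at 0.854. The neural list summed to 210 and 219 CPM, with 1 of 5 detected genes lower and 0 higher. Of its 10 counted genes, 3 had 0 counts in both libraries, the neuronal Mir124a-1 and Mir124a-3 and Mir9-2. Each of them has further numbered copies in the list. Reads that map to more than 1 copy stand on no gene, so these 0 counts need not mean absence. The part of other tissue, of depth or of either library in the members' difference was not tested.

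**Figure D4:**
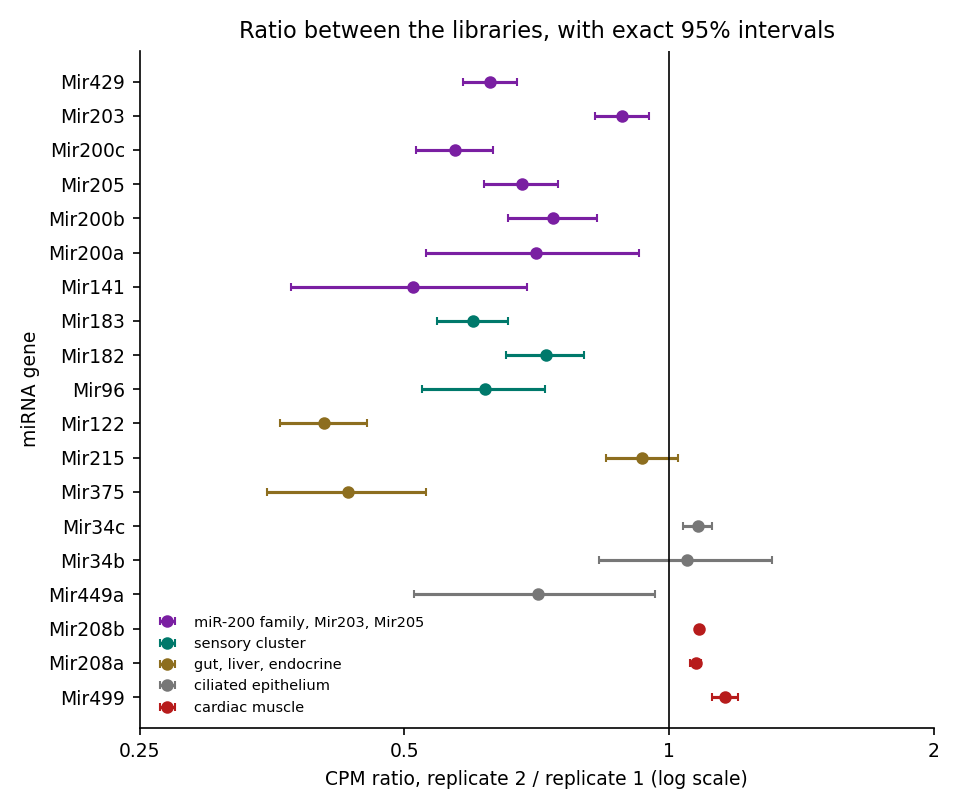
Ratio of CPM in replicate 2 to replicate 1 (log axis) for the 7 members, the named genes of the other epithelial lists and the 3 most abundant of the cardiac list; bars are exact 95% intervals for counting error and the line marks equality. The members and the sensory cluster lie between 0.512 and 0.885, and these 3 cardiac genes between 1.07 and 1.16; Mir133a-1 and Mir1a-1, counted little, are not plotted.

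The start of the chromosome 4 host transcript is shown because all 3 hairpins of the locus lie within that transcript. ZEB proteins are known to bind CACCTG E-boxes, and any part of theirs in the members' difference was not tested. The window is chr4:156059753-156060052 on GRCm38.p6, minus strand, from 250 bases before to 50 after the RefSeq start of Gm13648, with matches in capitals.
Gm13648: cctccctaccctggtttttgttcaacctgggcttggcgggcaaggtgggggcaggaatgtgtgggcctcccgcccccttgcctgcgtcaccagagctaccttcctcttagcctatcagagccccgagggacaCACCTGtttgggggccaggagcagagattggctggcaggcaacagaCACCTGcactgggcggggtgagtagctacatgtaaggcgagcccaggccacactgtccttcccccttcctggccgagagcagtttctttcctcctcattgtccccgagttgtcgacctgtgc

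Searched on both strands as CACCTG or CAGGTG, the window held 2 matches, starting 118 and 72 bases before the transcript start. At least 1 match was found in 20.2% of the 32851 RefSeq windows of 300 bases, and at least 2 in 2.88%. The window of Mir205hg, the host of Mir205, held 1 match, starting 193 bases before its start. The start of Gm15884, the host on chromosome 6, was not searched. A match describes the letters only; binding was not measured here.

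Reads on the strand opposite the members were few. The members' reads had helped to choose the own-strand column, so this is no separate finding. Mir200b, Mir429, Mir200c and Mir205 had 0 in both libraries, Mir200a had 2 in each and Mir141 had 1 and 0. Mir203 was the exception, with 79 in replicate 1 and 19 in replicate 2, or 0.870% and 2.14% of the reads at its position, against 4.59% and 4.48% over all genes.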

How the data were processed

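Each library has 1 deposited table of raw counts for miRNA genes, made by the authors on build mm10 with GENCODE annotation M4, per the file headers in the notes beside the tables. No aligner or counter is named in what was used here. The 3 count columns carry no names. From their sums and the members' reads, column 3 was taken as the gene's own strand. Summary rows for unmapped, multimapping and no-gene reads (68.0% of replicate 1 and 58.6% of replicate 2) were left out of totals and tests. CPM were computed from own-strand counts over miRNA genes, so a count of 0 allows up to 0.162 and 1.49 CPM (3 counts).

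Symbols, positions and hosts came from GENCODE M21 by gene ID (1894 of 1973 matched). Mir200b and Mir200c carry an older ID version in the counts, so the counted interval may differ slightly. Sequences came from RefSeq.

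The members and lists were chosen with earlier results of these data known. Genes set to be named were the 7 members, the 5 of most similar ratio and the 3 most abundant detected genes of 8 other lists. Not all of these list genes were described above. An exact sign-flip test over 2 libraries cannot go below p = 0.5 (two-sided), and none is reported. Tools were Python 3.11.15, SciPy 1.17.1, statsmodels 0.14.6, R 4.3.3, edgeR 4.0.16 and DESeq2 1.42.0 (size factors only). Alternatives were both strands, 4 other scalings, other filters and pseudocounts, thinning, edgeR's exact test and each replicate alone.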

Additional observations from a re-analysis of the deposited data

Results flagged for a closer look

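The opposite strand of Mir203 held more than the 3 reads compatible with a count of 0: 79 in replicate 1 and 19 in replicate 2. These are 4.28 and 9.42 CPM, so replicate 2 was the higher by 2.20-fold (exact 95% interval 1.26 to 3.67), while Mir203 itself was lower there at 0.885. RefSeq places another miRNA, Mir203b (Gm51289), on this strand. Its mature strands, shown because they lie across from those of Mir203, overlap miR-203-5p and miR-203-3p by 20 bases each; seeds are in capitals.
miR-203b-3p: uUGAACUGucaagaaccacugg
miR-203b-5p: aGUGGUCCuaaacauuucac
Which of these strands the reads came from was not tested.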

How the results depend on the processing

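The members' summed share, 0.182% of own-strand miRNA counts, was 0.0981% as a share of all mapped reads and 0.417% with the 10 most abundant genes left out of the total, both by the change of denominator. Each replicate alone gave 0.149 to 0.214%. Of the 7 members called lower in replicate 2, 4 were called after replicate 1 was thinned (11.8% of all genes tested) and 0 by edgeR's exact test; that test called 5 genes in all, against 63 lower and 60 higher by the exact binomial test. Over the other alternatives run, 5 to 7 members were called. Of all genes tested, 6.68% (mapped reads) to 20.4% (filter at 10 CPM) were called lower in these settings. Mir200a was the one lost with both strands (14.8% of all genes lower) or with no filter (7.66%). All 63 member ratios computed under 9 alternatives kept replicate 2 below replicate 1, but they are not 63 separate checks. A change of filter leaves a gene's ratio as it was, and a change of scaling moves all genes by 1 common factor. Scaling by mapped reads moved the median log2 ratio of all detected genes from -0.01 to 0.12, and the members' from -0.55 to -0.42. The 9 ratios between members kept their direction with both strands. For these ratios, each replicate alone only repeats the values of the 2 libraries given above and is no further check. Depth limits Mir141 and Mir200a most, at 46 and 57 counts in replicate 2. No paired analysis was possible because the 2 replicates form 1 group.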
